A study of Homo sapiens with 12 samples.

Results

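The control libraries of the study were compared with each other, the knockout control against both controls of the knockdown arm, to describe the 2 expression states in which the LMSU line appears in these data. LMSU is a human cell line labelled as gastric cancer with the p53 variant R175H, a missense form of the tumour suppressor p53. The members were chosen by their labels and not by their values: the 2 libraries titled GFP_V2, which carry the control construct of the knockout arm and no doxycycline, and the 4 libraries titled vector and scramble_shRNA, 2 of each, which carry an empty vector or a hairpin without a stated target and were labelled with doxycycline. These 6 of the 12 libraries keep mutant p53 according to their labels, and all came from cells in Ham's F-10 medium. The labels do not say what V2 stands for, whether a group is 1 clone or a pool, or what dose or time of doxycycline was used. The arm of the study, doxycycline, the construct and any batch coincide in this comparison and cannot be told apart. The other 6 libraries, from the p53 knockout and from the hairpins shRNA 1 and shRNA 2, were used only to ask whether the same difference between the arms was present when p53 was targeted.

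Many of the genes described below belong to 3 well-known programmes. The gene lists were chosen with earlier results of these data known, and no test of gene sets was run. Before a cell copies its DNA in S phase, the MCM2 to MCM7 helicase is loaded at replication origins, and the E2F transcription factors switch on the genes of this machinery, of nucleotide synthesis and of the next cell cycle steps. Mesenchymal cells, fibroblasts above all, secrete an extracellular matrix of fibrillar collagens, fibronectin and proteoglycans, which integrins bind at the cell surface. NF-kB is a family of transcription factors that induces cytokines and chemokines, among them the CXC chemokines that attract neutrophils.

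Expression was measured as read counts per gene symbol. The knockout control libraries summed to 13666562 and 10351171 counts, the vector libraries to 13836692 and 16823246, and the scramble libraries to 12971347 and 13873470. The 2 knockout control libraries stood apart from each other. Their counts differed by 25.92 times the sampling variance (chi-square per degree of freedom), against 1.457 in vector and 1.951 in scramble, and the biological coefficient of variation, the relative spread between libraries beyond counting error, was 19.7% for these 2 libraries alone, 2.88% over vector and scramble and 9.55% over all 12. Values without its replicate 1 or its replicate 2 are therefore also given below where that ends the call of a named gene, or turns a list's median or moves it by over 1.5 times. Since the labels name no separate cultures behind the libraries of 1 group, the p values measure only the spread between these libraries, which may be technical.

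The distance between 2 libraries, the root mean square difference of log2 CPM (counts scaled by library size and edgeR's TMM factor) over all tested genes, was 0.960 to 1.10 for the 8 pairs of a knockout control library with a vector or scramble library. It was 0.464 to 0.480 between vector and scramble, 0.474 between the 2 knockout control libraries, 0.256 within vector and 0.282 within scramble. The 2 knockout control libraries thus lay about as far from each other as vector from scramble, and all 8 distances between the arms were larger than any within an arm. Replicate 2 of the knockout control lay nearer to both libraries of the p53 knockout (0.29 and 0.34) than to its own replicate 1. The first principal component of the 6 libraries held 77.8% of the variance.

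**Figure D1:**
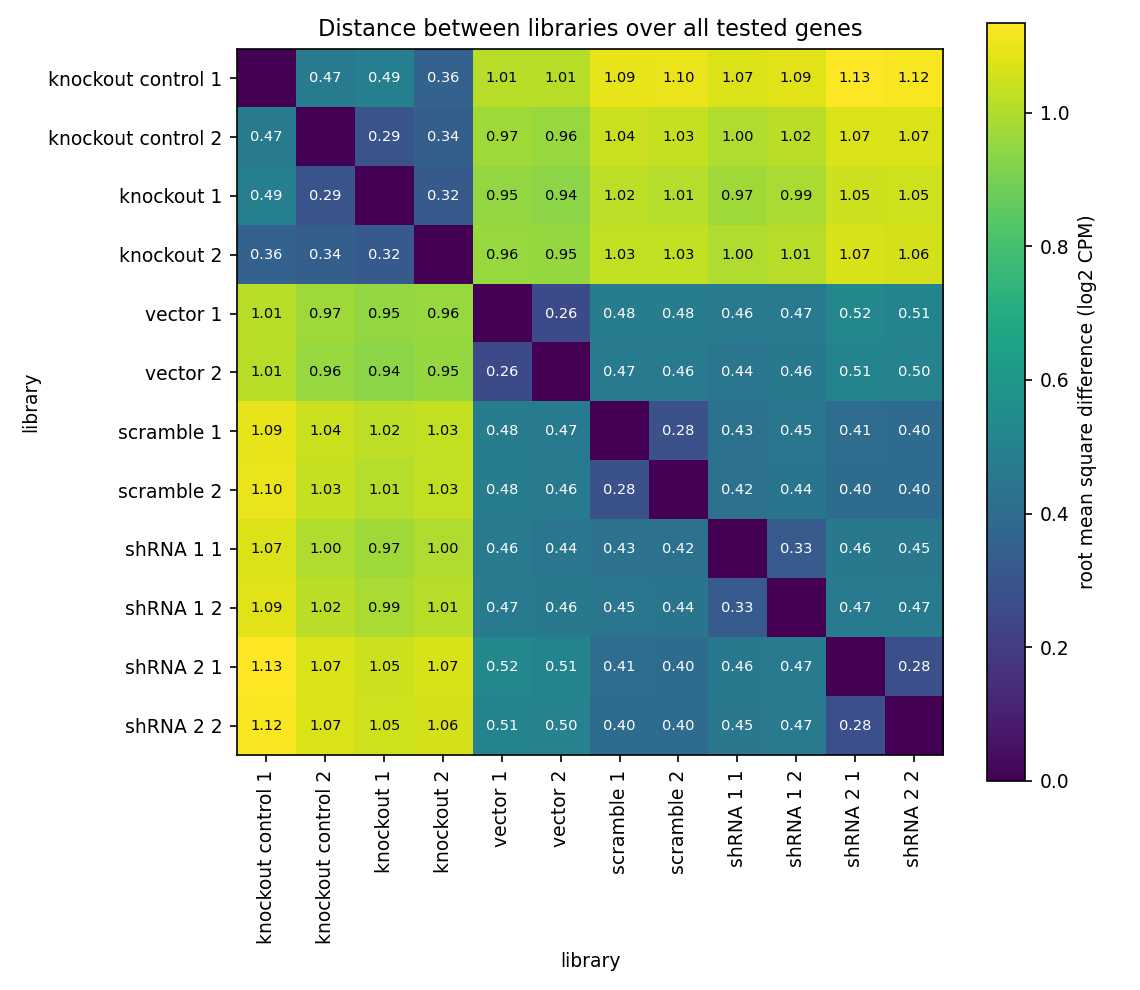
Distance between all 12 libraries as root mean square difference of log2 CPM over the tested genes, with libraries on both axes, the value of each pair printed in its square and brighter squares for larger distances. The first 4 rows are the knockout arm and the other 8 the knockdown arm; pairs across the arms ranged from 0.939 to 1.13 and form the 2 bright blocks.

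The labelled tissue was checked against marker genes. In all 6 libraries the genes that define a gastric or glandular epithelium were at or near 0: of 13 gastric lineage markers in the table, 6 had no count in any library and 12 had at most 8 counts in any library, and none of 12 intestinal markers passed the filter on low counts. EPCAM, an epithelial adhesion molecule, had at most 2 counts per library, as did CDH1, the gene of E-cadherin. Of 26 epithelial markers, 15 were too low to test, while KRT8 and KRT18, keratins of simple epithelia, were present at 63.9 to 198 CPM and 185 to 283 CPM. Fibroblast markers were present in both states. Of 15 in this list 13 could be tested, PDPN, which encodes podoplanin, was at 0 in all 6 libraries, and the summed level of the tested members was 3084 to 3447 CPM in the knockout control and 17690 to 19540 CPM in vector and scramble. Of 17 blood cell markers 15 had at most 6 counts in any library, and of 12 endothelial markers 9 had at most 10. The abundant exceptions were CD68, a lysosomal protein of macrophages, at 2712 to 6648 counts, TIE1, an endothelial receptor kinase, at 962 to 2258, and ROBO4, an endothelial guidance receptor, at 157 to 433. CD68 and TIE1 were lower in the knockout control (-0.67 and -0.62 on the log2 scale) and ROBO4 higher (0.91); the part of such cells in the results was not tested. In such bulk libraries, fewer cells of one type and less RNA per cell cannot be told apart.

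Of 13365 genes tested with edgeR, 4649 (34.8%) were called higher and 4404 (33%) lower in the knockout control than in the mean of vector and scramble, at a Benjamini-Hochberg adjusted p below 0.05. With a fold change of at least 2 these were 1804 (13.5%) and 1709 (12.8%), with at least 4 they were 371 and 425, and with at least 16 they were 27 and 49. About 2 in 3 genes (67.7%) were called. A count of called members in a gene list is therefore given below beside its median log2 fold change. Each count is to be read against the shares of all genes, 34.8% called higher and 33% called lower. The median over all tested genes was 0.018, and the median size of the change was 0.595. Both knockout control libraries lay above all 4 others for 4508 genes (33.7%) and below them for 4342 (32.5%). Against vector alone 62.5% of genes were called (32% higher, 30.5% lower) and against scramble alone 64.6% (33.1% higher, 31.5% lower); these comparisons share the knockout control libraries. The knockout control did not lie between vector and scramble for most called genes: its mean was above both for 4613 of the 4649 higher genes and below both for 4363 of the 4404 lower genes. The model pools the spread over all libraries, which is smaller than the spread of the knockout control. Weights that give each arm its own spread left 7857 calls, of which 7772 were among the 9053 and in the same direction.

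Cytokine, chemokine and replication genes were among the 12 largest increases. CSF2, which encodes the cytokine GM-CSF, had 404 and 220 counts in the knockout control, 0 and 0 in vector and 7 and 4 in scramble. Its level was 119.8-fold that of vector and scramble pooled (95% exact counting interval 66.5 to 241), and at least 234-fold higher than in vector if 3 counts over that group are taken as the floor. CXCL1, a neutrophil-attracting chemokine, stood at 604 and 539 CPM in the knockout control, at 7.39 and 7.54 CPM in vector and at 19.6 and 18.9 CPM in scramble, a log2 fold change of 5.58 (SE 0.089, edgeR adjusted p 1.1e-11). MMP3, the matrix protease stromelysin 1, stood at 39.6 and 34.2 CPM against 0.679 to 1.5 CPM in the other 4 libraries (5.18). SERPINB2, an inhibitor of plasminogen activators, was higher by 4.01, and C3, the central complement component, by 3.93, at 390 and 372 CPM against 13.7 and 13.4 CPM in vector and 47.5 and 44.8 CPM in scramble. All 5 were lowest in vector and intermediate in scramble, with no overlap between the knockout control and either. The replication genes among the 12 largest increases were E2F2, MCM10, CCNE2 and CDC45, with log2 fold changes of 3.85 to 4.63; FAM111B, a protease gene expressed in S phase, and RIBC2, a gene of ciliary microtubules, were higher by 4.57 and 3.94.

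The 12 largest decreases included matrix genes, glycosyltransferase genes and a non-coding RNA. FN1, which encodes fibronectin, stood at 536 and 731 CPM in the knockout control, 9981 and 10228 CPM in vector and 18206 and 19154 CPM in scramble, a log2 fold change of -4.44 (SE 0.15, edgeR adjusted p 1.2e-09). FN1 took the largest share of counts of any gene in both scramble libraries. SULF1, a sulfatase that edits heparan sulfate, stood at 0.278 and 0.255 CPM, from 4 and 3 counts, against 15.1 to 22.0 CPM (-6.02), and CEMIP, which takes part in hyaluronan breakdown, at 1.32 and 2.30 CPM against 60.6 to 152 CPM (-5.77). EDIL3, a secreted integrin ligand, stood at 8.28 and 13.0 CPM against 204 to 232 CPM (-4.36). H19, an imprinted non-coding RNA, had 1 and 2 counts in the knockout control, 307 and 305 in vector and 93 and 101 in scramble, which is 127-fold less (counting interval 43.4 to 618). The sialyltransferase gene ST6GAL2 had 1 and 0 counts against 41 to 118 (157-fold less, 28.0 to 6230). PRELP, a matrix proteoglycan gene, and SEMA5B, a semaphorin gene, each had 3 counts in all in the knockout control and were 53.5-fold (18.2 to 261) and 47.1-fold (15.9 to 229) less abundant. DPT (dermatopontin), TNXB (tenascin X) and GALNT15 (a glycosyltransferase) were also among the 12 largest decreases, with log2 fold changes of -5.45 to -4.37. Counting intervals cover counting error only. No gene had at least 10 counts in both knockout control libraries and 0 in all vector and scramble libraries; 3 genes, DCHS2, SNX31 and SLC5A12, singled out after their values were seen, had at least 10 counts in each vector and scramble library and 0 in both knockout control libraries.

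**Figure D2:**
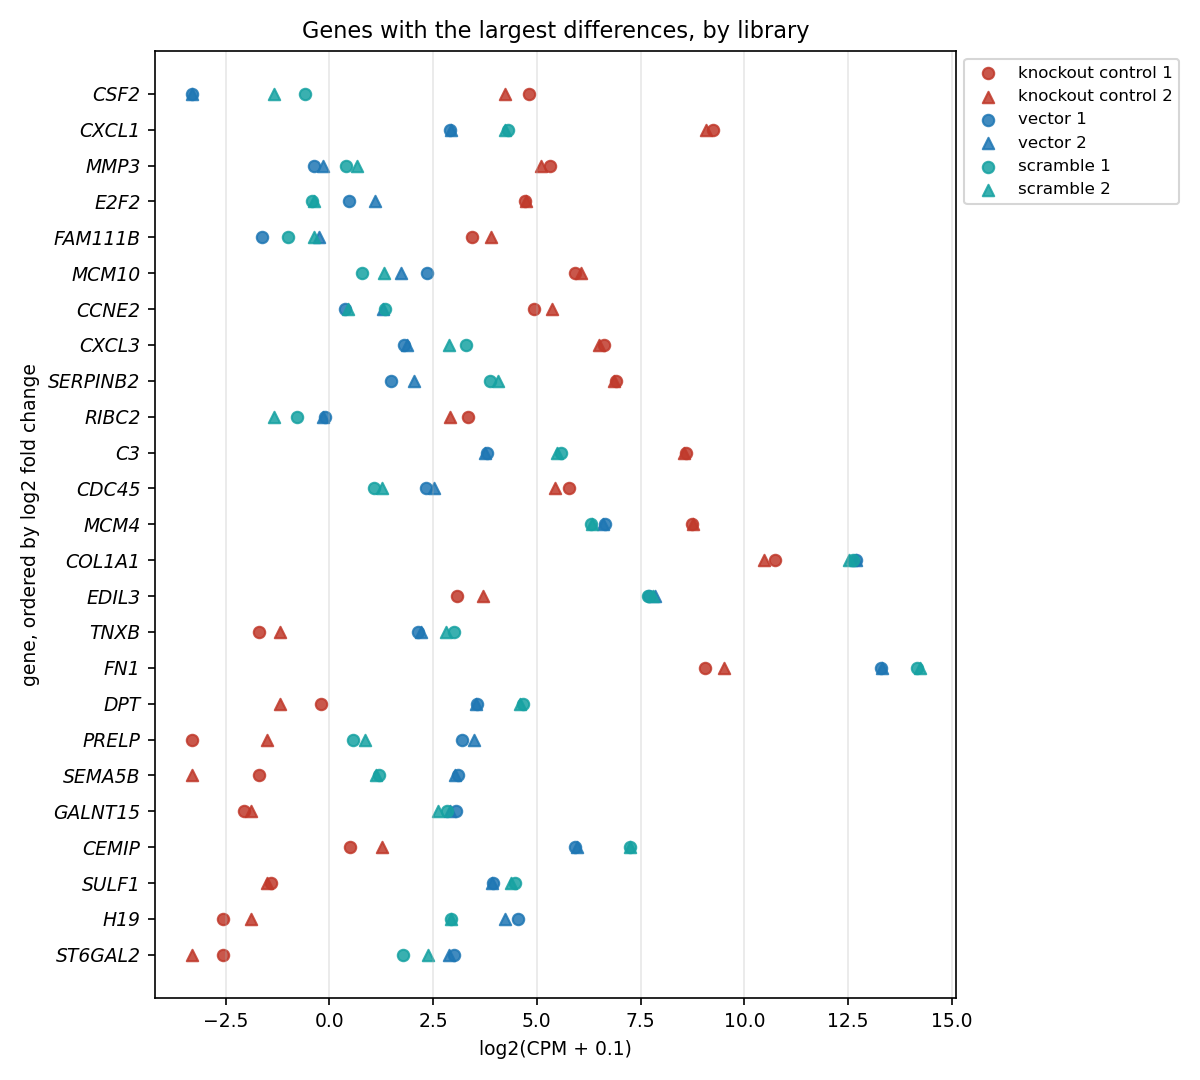
Level of the genes with the largest differences and of MCM4 and COL1A1 in each control library, with log2(CPM + 0.1) on the x axis, genes on the y axis in order of log2 fold change, colours for groups and shapes for replicates. The red points of the knockout control lie to the right of all others from CSF2 down to MCM4 and to the left from COL1A1 down to ST6GAL2.

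Genes of replication were higher in the knockout control as a list. All 37 tested members of the list of MCM helicase and G1/S genes were called higher (34.8% of all genes were), 36 with no overlap between the libraries, and their median log2 fold change was 2.58 beside 0.018 over all genes. Individual members ranged from 0.71 to 4.63. The summed level of the list was 3668 to 4200 CPM in the knockout control, 999.6 to 1007 CPM in vector and 647.8 to 662.6 CPM in scramble, so that scramble was lowest. The median was 2.26 against vector and 2.93 against scramble, 2 comparisons that share the knockout control libraries. It was 2.47 without the first and 2.67 without the second of these, with 37 members called higher in both cases.

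All 6 subunits of the replicative helicase were higher, by 1.85 to 3.15. MCM4 stood at 426 and 437 CPM in the knockout control, 99.1 and 96.6 CPM in vector and 78.4 and 80.3 CPM in scramble (log2 fold change 2.29, SE 0.061, edgeR adjusted p 3.4e-10). MCM3 stood at 245 and 209 CPM, 29.2 and 29.7 CPM, and 23.5 and 21.1 CPM (3.15). MCM6 was the subunit with a lower level in vector, 25.8 and 24.4 CPM, than in scramble, 32.4 and 33.8 CPM, with 123 and 116 CPM in the knockout control (2.05). Genes that load and fire the helicase were higher to differing extents. CDT1, a loading factor, had the smallest value of the list (0.71): it stood at 155 and 111 CPM in the knockout control, 128 and 118 CPM in vector and 57.3 and 49.5 CPM in scramble, so that it overlapped vector. CDC6, another loading factor, stood at 76.0 and 81.6 CPM against 9.73 and 9.71 CPM in vector and 5.42 and 5.69 CPM in scramble (3.42). CDC45, part of the active helicase, was at 54.7 and 43.6 CPM against 2.02 to 5.69 CPM (3.85), and MCM10, which takes part in firing, at 60.7 and 67.3 CPM against 1.62 to 5.05 CPM (4.47). CLSPN, a checkpoint adaptor at the fork, was higher by 3.39. CCNE2, cyclin E2, which drives entry into S phase, stood at 30.7 and 41.3 CPM against 1.21 to 2.43 CPM (4.29), and E2F2, an activating E2F, at 26.0 and 26.8 CPM against 1.28 and 2.04 CPM in vector and 0.647 and 0.674 CPM in scramble (4.63). In each of these genes except CDT1 both knockout control libraries lay above all 4 others.

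E2F binding is the textbook link between these genes. Their promoters were searched for 2 forms of the E2F motif, TTTCCCGC and TTTGGCGC, on both strands. The search covered the 250 bases before the start site given by RefSeq (GRCh38.p14). The genes were listed for their known role in replication, so the share with a match describes the list, not the arm difference. Of the 37 genes 33 had a promoter in the table, and 13 of them (39.4%) held a match, beside 1.96% of all 27305 promoters and 3.11% of the 9818 promoters of tested genes. Stretches of 80 bases are shown for 2 helicase subunits and for E2F2, 5' to 3' on the strand of the gene, with the match in capitals. They lie at chr6:52284873-52284952 (minus strand) for MCM3, chr2:135876490-135876569 (minus strand) for MCM6 and chr1:23531234-23531313 (minus strand) for E2F2, where the match ends 34 bases before the start site.
MCM3: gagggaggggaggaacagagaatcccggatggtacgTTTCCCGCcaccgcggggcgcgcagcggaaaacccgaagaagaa
MCM6: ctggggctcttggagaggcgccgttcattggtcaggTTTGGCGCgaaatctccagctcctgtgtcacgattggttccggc
E2F2: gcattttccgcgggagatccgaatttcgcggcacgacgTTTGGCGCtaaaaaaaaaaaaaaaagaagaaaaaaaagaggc
In these stretches MCM3 carries the first form, MCM6 and E2F2 the second. The promoter of MCM6 held 2 matches within the 250 bases, of which 1 lies in the stretch shown. A match describes letters in the reference and does not show that a factor binds there.

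Nucleotide synthesis and DNA repair genes were higher too. Of 22 nucleotide synthesis genes 18 were called higher, with a median of 1.47; the 3 called lower were IMPDH1, IMPDH2 and GMPS, all of guanine nucleotide synthesis, at -0.51 to -0.37. IMPDH1 was at -0.76 without replicate 1 of the knockout control and -0.31 without replicate 2, and IMPDH2 at -0.60 and -0.20. TYMS, thymidylate synthase, stood at 246 and 221 CPM in the knockout control, 61.2 and 64.2 CPM in vector and 28.9 and 25.4 CPM in scramble (2.5). RRM2, the inducible subunit of ribonucleotide reductase, was higher by 2.05 and its partner RRM1 by 1.68, and PFAS, an enzyme of purine synthesis, by 2.31. Of 24 repair genes 23 were called higher, with a median of 1.69, and XRCC1, a scaffold of single-strand break repair, lower (-0.69). UNG, which removes uracil from DNA, stood at 89.7 and 86.1 CPM against 23.4 to 26.5 CPM (1.85); PARP1, a sensor of strand breaks, was higher by 1.81, and FANCI, of the crosslink repair pathway, by 1.67.

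Mitotic genes were higher by less than replication genes. Of 32 G2/M genes 31 were called higher, 24 with no overlap between the libraries, with a median of 0.76 and a highest value of 1.42; TOP2A, topoisomerase II alpha, did not pass the test (0.04, edgeR adjusted p 0.80) and was called higher without replicate 1 of the knockout control (0.25) and lower without replicate 2 (-0.23). FOXM1, a transcription factor of the G2 phase, stood at 189 and 178 CPM in the knockout control, 93.2 and 94.1 CPM in vector and 49.7 and 51.1 CPM in scramble (1.42, SE 0.077). CCNB1, cyclin B1, was higher by 1.25, AURKA, a spindle kinase, by 1.24 and TPX2, its activator, by 0.96. The list depended on the control: its median was 0.47 against vector, with 21 members called, and 1.13 against scramble, with 32. Summed over the list, the knockout control stood at 6020 to 6577 CPM and the other 4 libraries at 2810 to 4731 CPM, with scramble below vector. All 32 members, and 32 of the 37 replication genes, had the larger value against scramble. Of 27 G2/M promoters given by RefSeq, 14 (51.9%) held TTTGAA, the core of the cell cycle homology region, on either strand. It was held by 13.6% of all promoters and by 0 of the 33 promoters of the replication list. The G2/M genes too were listed for their known role, so this share describes the list, not the arm difference.

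**Figure D3:**
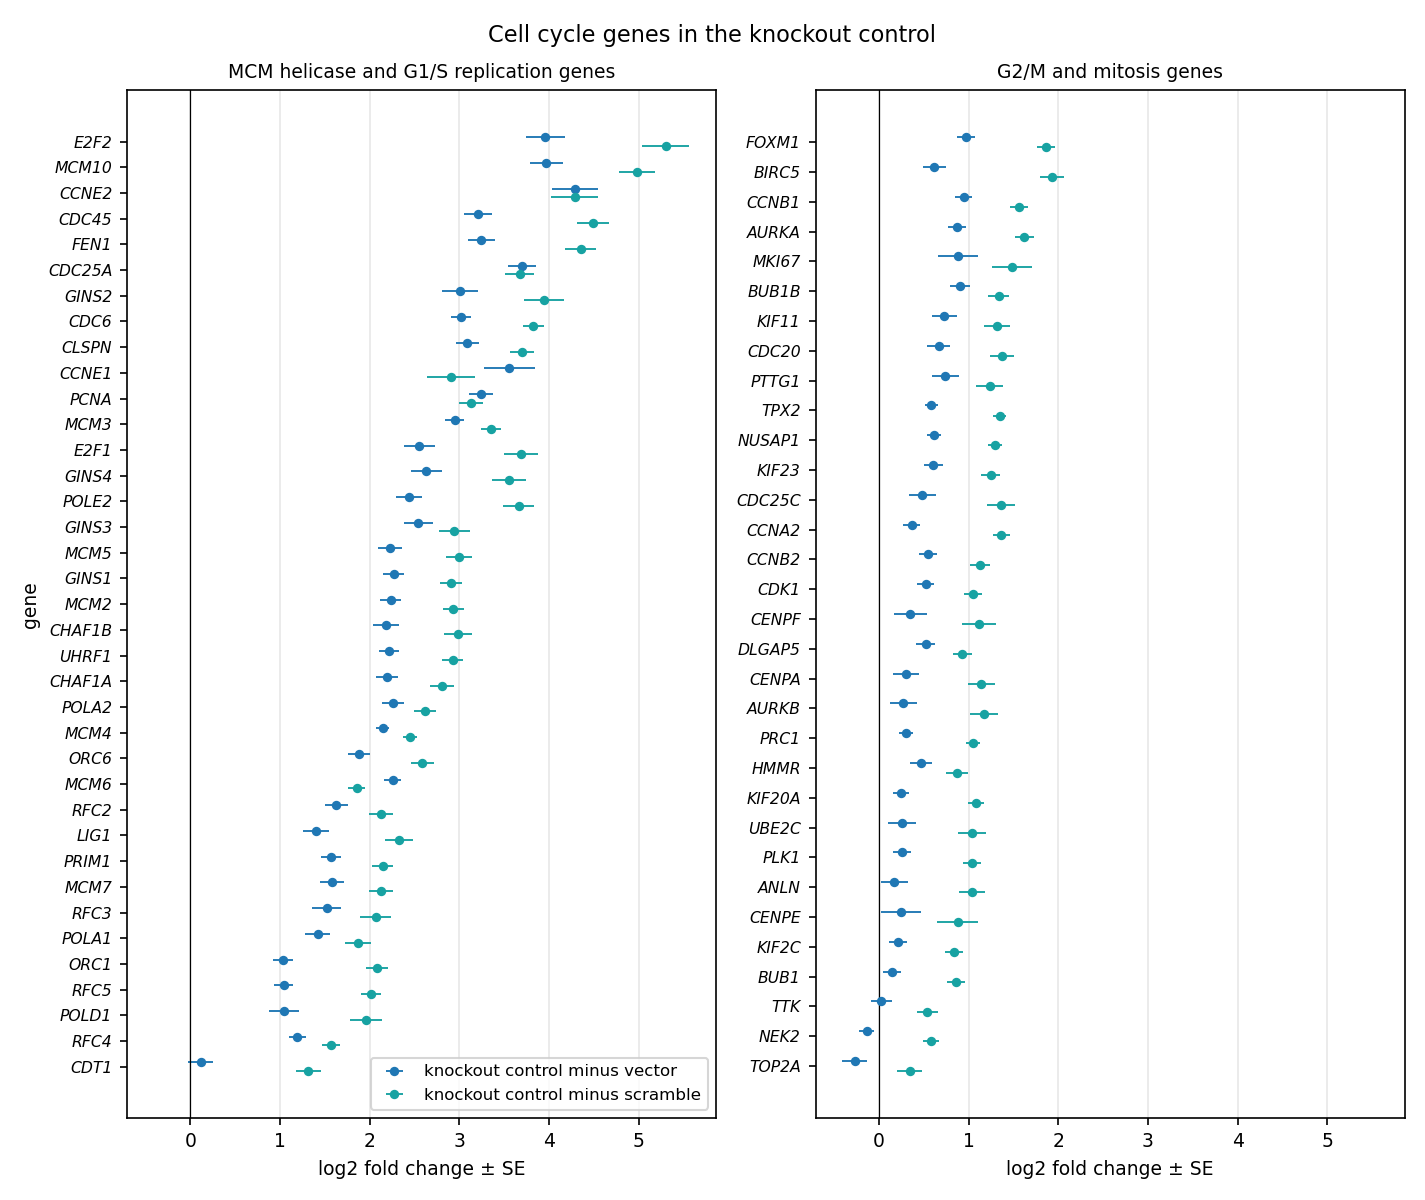
Log2 fold change with its SE (x axis) of every replication gene (left) and every G2/M gene (right) in the knockout control minus vector (blue) and minus scramble (teal), 1 gene per row. Replication genes centre near 2.26 and 2.93 and G2/M genes near 0.47 and 1.13, and the difference from scramble is the larger of the pair in 32 of 37 and 32 of 32 rows.

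Matrix genes were lower. Of 21 collagen chains 17 were called lower (33% of all genes were) with a median of -1.63, and COL17A1, the chain of an epithelial hemidesmosome collagen, was called higher (1.56). The 5 chains of collagens I, III and V that were tested were lower, by 2.01 to 2.95 on the log2 scale, while COL27A1, another fibrillar chain, did not pass the test (-0.07, edgeR adjusted p 0.54). COL1A1, the alpha 1 chain of collagen I, stood at 1706 and 1427 CPM in the knockout control, 6627 and 6571 CPM in vector and 6330 and 5886 CPM in scramble (-2.02, SE 0.097, edgeR adjusted p 1.2e-08). COL1A2 stood at 915 and 794 CPM, 6402 and 6389 CPM, and 6917 and 6631 CPM (-2.95). COL3A1, of collagen III, was also higher in scramble, at 2299 and 2278 CPM, than in vector, at 1518 and 1548 CPM, and stood at 348 and 317 CPM in the knockout control (-2.49). COL5A1 and COL5A2, whose product nucleates collagen fibrils, had log2 fold changes of -2.81 and -2.01. Summed over the list, collagens took 6702 to 7168 CPM in the knockout control and 28600 to 29870 CPM in the others, with no overlap.

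The enzymes that process and cross-link collagen followed to a smaller extent, with 17 of 21 called lower and a median of -0.82; PLOD2, a lysyl hydroxylase gene, was called higher (0.36), at 744 and 1138 CPM against 682 to 787 CPM, and the call was lost without replicate 2 of the knockout control (0.02). LOX, lysyl oxidase, stood at 50.6 and 66.5 CPM against 482 to 511 CPM (-3.08), while among its 4 paralogs LOXL4 (-1.35), LOXL2 (-0.88) and LOXL1 (-0.82) were lower and LOXL3 did not pass the test (-0.17, edgeR adjusted p 0.34; called at -0.50 without replicate 1 of the knockout control). PCOLCE and ADAMTS2, which act on the procollagen ends, had values of -2.10 and -2.02, and LEPRE1, a prolyl hydroxylase gene, -1.46. Of 25 matrix glycoproteins 20 were called lower, with a median of -1.30. TNC (tenascin C) was higher by 1.76 and MATN3 (matrilin 3) by 0.58. CYR61, a matricellular protein gene, was higher by 0.22 (0.10 without replicate 1 of the knockout control). MATN3 stood at 9.95 and 11.7 CPM in the knockout control, 11.2 and 9.77 CPM in vector and 4.21 and 5.69 CPM in scramble. CYR61 stood at 1610 and 1380 CPM, 1560 and 1550 CPM, and 1060 and 1050 CPM. Both genes thus overlapped vector and lay above scramble alone. THBS2 (thrombospondin 2) stood at 82.3 and 101 CPM against 603 to 727 CPM (-2.86), SPARC (osteonectin) at 488 and 421 CPM against 1928 to 2559 CPM (-2.28) and FBLN2 (fibulin 2) at 27.1 and 22.5 CPM against 119 to 169 CPM (-2.54). In each of the 3 the knockout control lay below all 4 others.

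Proteoglycans had the lowest median of the matrix lists, -2.14, with 11 of 14 called lower. LUM (lumican) stood at 57.2 and 66.2 CPM in the knockout control, 221 and 224 CPM in vector and 612 and 593 CPM in scramble (-2.57). DCN (decorin) stood at 34.9 and 31.8 CPM, 66.3 and 62.5 CPM, and 305 and 295 CPM (-2.06), so that vector lay nearer to the knockout control than to scramble. HSPG2 (perlecan, of basement membranes) was lower by 2.34 on the log2 scale at 121 and 147 CPM against 660 to 692 CPM. SDC1, the cell surface proteoglycan syndecan 1, went the other way, at 127 and 113 CPM against 27.3 to 41.1 CPM (1.82), and SRGN (serglycin) and SDC4 (syndecan 4) were called higher, at 0.78 and 0.20. Both calls were lost without replicate 1 of the knockout control (0.65 and 0.14) and with weights per arm; that of SDC4 was made under 5 of 17 alternatives.

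Matrix proteases and their inhibitors were split. Of 17 tested, 7 were called higher and 9 lower, with a median of -0.58. With a spread of its own for each arm the count of higher members was 4. The median was -0.82 without replicate 1 of the knockout control and -0.39 without replicate 2. MMP3 was the highest (5.18) and MMP13, collagenase 3, the lowest, at 5.22 and 6.98 CPM against 36.6 and 32.7 CPM in vector and 90.8 and 102 CPM in scramble (-3.25). TIMP3 and TIMP2, tissue inhibitors of these proteases, were lower, TIMP3 at 112 and 117 CPM against 836 to 848 CPM (-2.88) and TIMP2 by 1.90 on the log2 scale. MMP1, collagenase 1, stood at 8.21 and 7.49 CPM, between vector at 3.17 and 3.65 CPM and scramble at 8.33 and 9.81 CPM. Its call (0.50, edgeR adjusted p 0.0055) was lost with weights per arm, without replicate 1 of the knockout control (0.41) and when vector and scramble were treated as 1 group.

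No integrin subunit was called higher, and 11 of 15 were called lower, all 11 with no overlap between the libraries (median -1.13). ITGA4, not called with all libraries (-0.05), was called higher without replicate 1 of the knockout control (0.28) and lower without replicate 2 (-0.48). ITGA11, a collagen receptor subunit, stood at 9.04 and 10.1 CPM in the knockout control, 102 and 107 CPM in vector and 236 and 231 CPM in scramble (-4.03, SE 0.10). ITGA10, another collagen receptor subunit, was at -2.95, ITGB3, which binds fibronectin and vitronectin, at -2.33 and ITGA3, a laminin receptor subunit, at -1.73. Of 20 receptor tyrosine kinases 16 were called lower and 1 higher (median -0.69). EPHA2, an ephrin receptor, was the 1 called higher (0.74). The receptors for platelet-derived growth factor were lower: PDGFRA stood at 274 and 357 CPM against 2496 to 2715 CPM (-3.04) and PDGFRB at 19.9 and 19.7 CPM against 121 to 223 CPM (-3.07). ROR2, a Wnt receptor, was at -3.61 and EPHA4, another ephrin receptor, at -1.37. Among adhesion genes PCDH18, a protocadherin, was at -3.78 and CD44, a hyaluronan receptor, at -0.95, while MCAM, a low-count gene with 40 and 22 counts against 3 to 7, was at 2.75.

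All 13 tested fibroblast markers were called lower, with no overlap between the libraries and a median of -2.57; 8 of them also stand in the matrix or receptor lists above, so these lists are not independent of each other. The median was -2.54 without the first knockout control library and -2.68 without the second. Among mesenchymal transition genes 16 of 20 were called lower (median -0.78). TWIST1, a transcription factor of this programme, stood at 67.8 and 54.8 CPM against 407 to 539 CPM (-2.89), while its paralog TWIST2 was the 1 member called higher (0.78), and ZEB1, PRRX1 and CDH11, the last a mesenchymal cadherin, were at -1.59, -1.41 and -1.28. Epithelial markers had no common direction: 3 of 11 were called higher and 4 lower (median 0.27), and without replicate 1 of the knockout control 1 was higher and 5 were lower (median -0.25). KRT7, a keratin of ducts and glands, was higher by 2.47 at 7.23 and 5.79 CPM against 0.83 to 1.54 CPM, while DSP (desmoplakin) was at -2.30 and KRT8 at -1.16, and KRT18 did not pass the test (-0.05, edgeR adjusted p 0.73), being called lower without replicate 1 of the knockout control (-0.36) and higher without replicate 2 (0.19). Targets of TGF-beta, an inducer of matrix genes, were lower in 14 of 21 and higher in 3 (median -0.48; -0.74 without replicate 1 of the knockout control), with TGFBI at -1.84, TGIF1 at -1.79, the ligand TGFB1 at -1.17 and KLF10 at 1.02. Targets of YAP and TAZ were split, with 9 of 22 higher and 11 lower, FJX1 (1.42) and IGFBP3 (-1.55) among them. Their median was -0.28, and it was -0.17 without replicate 1 of the knockout control and -0.38 without replicate 2.

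**Figure D4:**
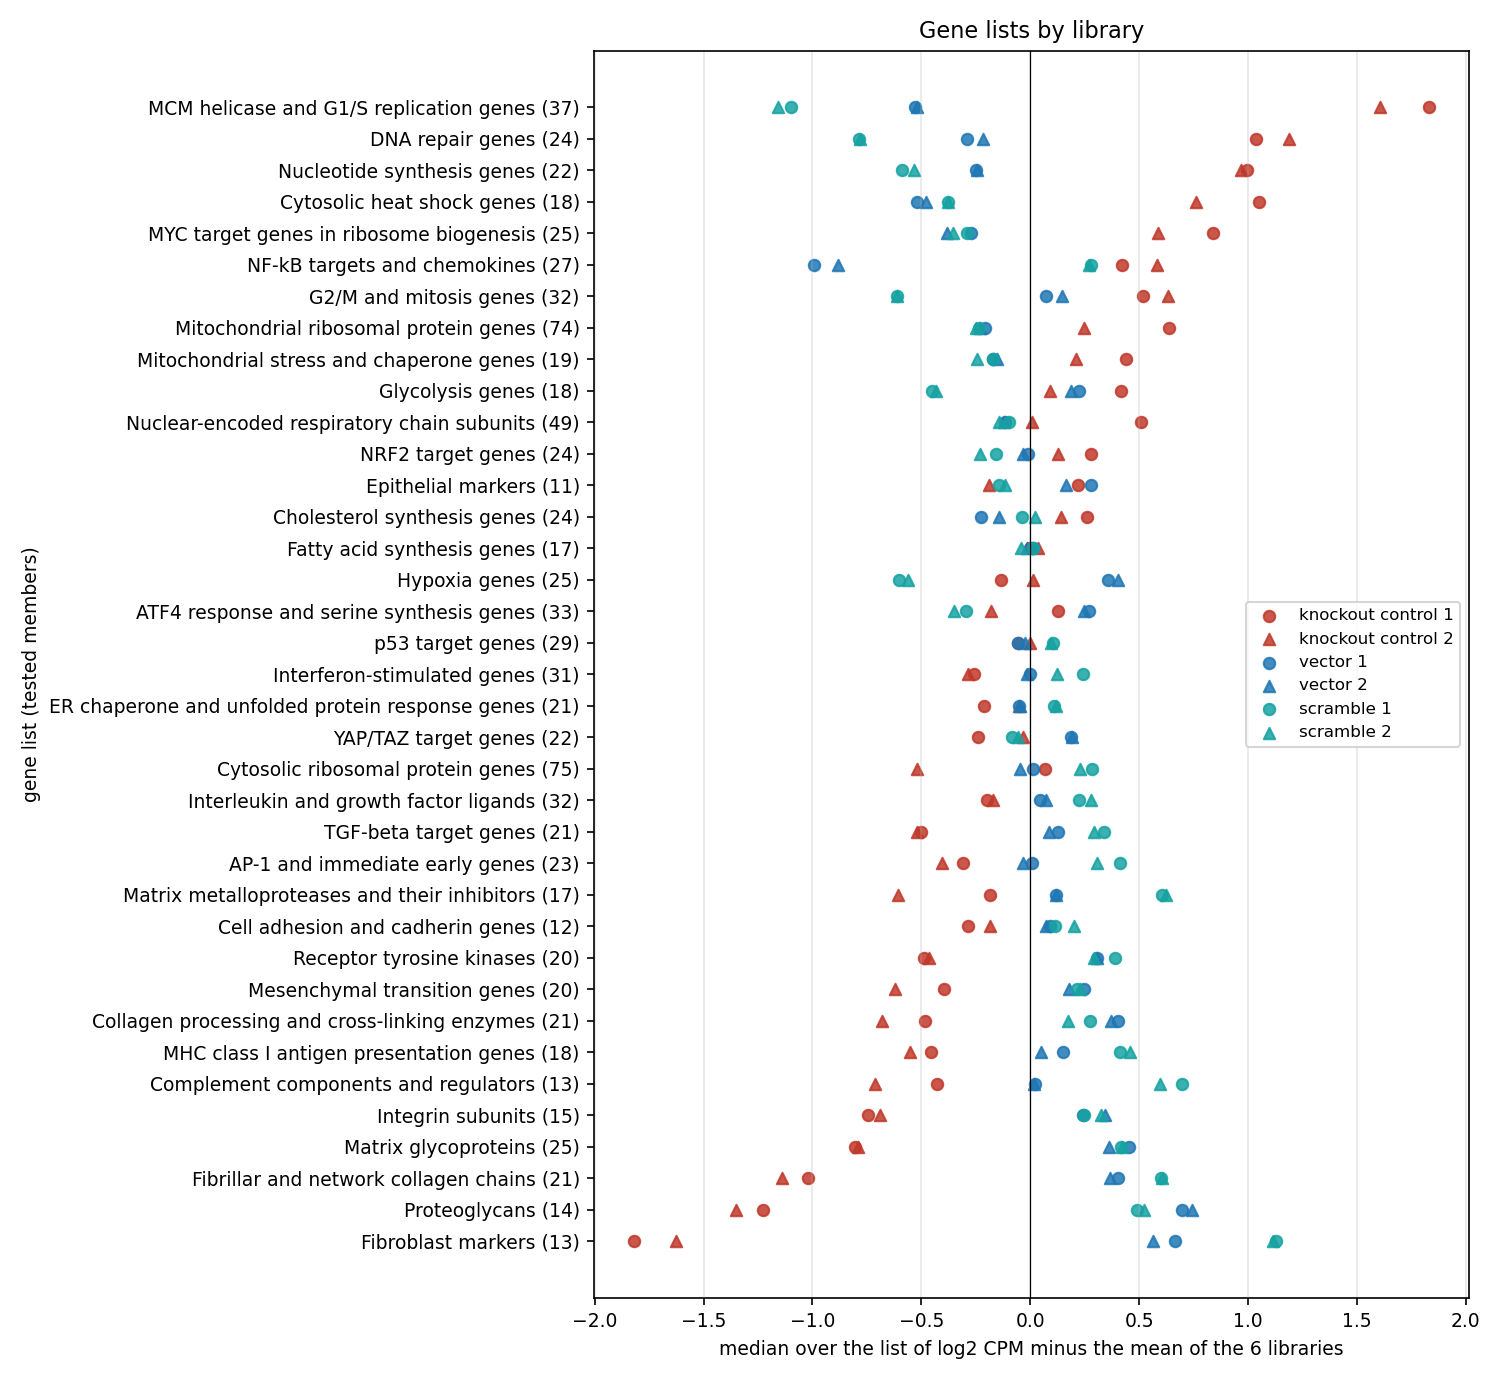
Median over each gene list (y axis, with the number of tested members) of log2 CPM minus the mean of the 6 control libraries (x axis), 1 point per library, for lists with at least 10 tested members. Replication genes (1.61 and 1.83 in the knockout control) and fibroblast markers (below -1.6) stand at the ends, the 2 red points are far apart for ribosomal proteins (0.07 and -0.52), and vector and scramble lie on opposite sides of 0 for hypoxia genes.

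Chemokine genes were much higher and the NF-kB list as a whole less uniformly so. Of 27 tested members 17 were called higher and 6 lower, with a median of 0.84. The 5 neutrophil-attracting CXC chemokines that could be tested were all higher, by 3.49 to 5.58. CXCL8, interleukin 8, stood at 871 and 1188 CPM in the knockout control, 43.4 and 45.5 CPM in vector and 182 and 184 CPM in scramble (3.51, SE 0.10). CXCL5 stood at 583 and 824 CPM, 31.5 and 34.1 CPM, and 89.9 and 97.0 CPM (3.67). CXCL3 (4.11) and CXCL2 (3.49) showed the same order of the 3 groups as CXCL1. The list depended on the control: the median was 1.43 against vector, with 21 higher and 2 lower, and 0.22 against scramble, with 12 higher and 9 lower. IL1B, the gene of interleukin 1 beta, shows this within 1 gene, at 171 and 139 CPM in the knockout control, 29.3 and 25.4 CPM in vector and 195 and 184 CPM in scramble. It was 2.5 higher than in vector and, at -0.29, slightly below scramble. CXCL1, CXCL2 and CXCL3 are near-identical copies, so their counts may in part be shared.

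The promoters of CXCL1, CXCL2, CXCL3 and CXCL5 hold a kB-type motif at a similar distance from the start site, and that of CXCL8 held no match to the letters searched. Of 22 promoters of the list in the RefSeq table (GRCh38.p14) 11 (50%) held it (GGG, any 2 bases, then TTTCC) on either strand within 250 bases before the start site, beside 1.73% of all promoters and 1.98% of those of tested genes. The stretches of 80 bases below, with the match in capitals, show that the sequence around the match is nearly the same in CXCL1, CXCL2 and CXCL3, where the match ends 68 or 69 bases before the start site, and different in CXCL5, where it ends 81 bases before it. They lie at chr4:73869279-73869358 (plus strand), chr4:74099229-74099308 (minus strand), chr4:74038724-74038803 (minus strand) and chr4:73998724-73998803 (minus strand).
CXCL1: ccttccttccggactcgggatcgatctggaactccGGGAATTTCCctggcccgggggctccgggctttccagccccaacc
CXCL2: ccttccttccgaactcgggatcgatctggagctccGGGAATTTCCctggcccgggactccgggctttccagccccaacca
CXCL3: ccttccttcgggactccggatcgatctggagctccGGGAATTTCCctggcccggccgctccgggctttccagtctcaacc
CXCL5: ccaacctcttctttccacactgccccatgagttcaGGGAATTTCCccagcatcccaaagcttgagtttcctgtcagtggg
As above, a match describes the reference letters and not binding. The genes were listed as NF-kB targets and chemokines, so the share with a match describes the list, not the arm difference.

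Other secreted and immune genes moved both ways. Of 32 interleukin and growth factor ligands 9 were called higher and 16 lower (median -0.34). NRG1 (neuregulin 1) stood at 155 and 152 CPM in the knockout control, 44.8 and 48.4 CPM in vector and 21.7 and 23.8 CPM in scramble (2.23), and IL11 (interleukin 11) at 163 and 139 CPM against 23 to 57.4 CPM (2.04). FGF7, a fibroblast-derived growth factor for epithelia, stood at 2.30 and 3.23 CPM, 16.3 and 20.7 CPM, and 62.1 and 64.8 CPM (-3.65), and DKK3, a secreted glycoprotein, was at -1.76. Complement genes other than C3 were mostly lower, with 8 of 13 called lower and 1 higher (median -0.88), CFI, a protease that inactivates C3b, at -2.47, and CD55, which also restrains it, at -1.10. Among MHC class I genes 11 of 18 were called lower (median -0.85). HLA-E was at -2.05, TAP1, a peptide transporter subunit, at -1.67, while its partner subunit TAP2 was called higher (0.82), and B2M, the shared light chain, at 850 and 767 CPM against 1477 to 1961 CPM (-1.07). Of 31 interferon-stimulated genes 13 were lower and 3 higher (median -0.16; -0.35 without replicate 1 of the knockout control and -0.37 without replicate 2), STAT2 (-1.82) and IFIH1 (-1.72) being lower and OAS3 (0.80) higher.

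Genes of protein and ribosome production formed another group. Of 18 cytosolic heat shock genes 15 were called higher (median 1.34) and HSF1, the heat shock transcription factor gene, lower (-0.35; -0.21 without replicate 2 of the knockout control). HSP90AA1, the inducible HSP90, stood at 1980 and 1982 CPM against 456 to 480 CPM (2.08, SE 0.057), HSPA8, the constitutive HSP70, at 1911 and 1669 CPM against 310 to 606 CPM (2.05), and HSPH1, a nucleotide exchange factor of HSP70, was higher by 2.33. HSPA1B (2.79) and HSPA1A (2.63) are near-identical copies whose counts may be shared. HSP90AB1 differed by 0.35 (0.21 without replicate 1 of the knockout control). Of 25 genes listed as MYC targets, genes of ribosome biogenesis among them, 22 were called higher and 0 lower (median 1.01). The higher ones included ODC1, of polyamine synthesis (1.63), NOP58, a nucleolar protein (1.49), and NCL, nucleolin (1.28). Chaperones of the endoplasmic reticulum were split, with 7 of 21 higher and 10 lower. Their median was -0.234, and it was -0.105 without replicate 1 of the knockout control and -0.321 without replicate 2. SDF2L1 was at 2.28 and DNAJB9, a target of the unfolded protein response, at -2.92.

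Mitochondrial genes were higher by modest amounts that differed between the 2 knockout control libraries. Of 74 mitochondrial ribosomal protein genes 60 were called higher and 1 lower (median 0.64; 0.45 without replicate 1 of the knockout control and 0.83 without replicate 2), MRPL13 at 71.2 and 68.5 CPM against 25 to 27.5 CPM (1.44) among them. Of 49 nuclear-encoded respiratory chain genes 27 were called higher and 3 lower (median 0.37). Without replicate 1 of the knockout control 22 were higher and 7 lower (median 0.12), and without replicate 2 43 were higher and 3 lower (median 0.63). HSPE1, the mitochondrial chaperonin cofactor, was higher by 2.39 and its partner HSPD1 by 0.91, whereas GDF15, a secreted stress signal, stood at 3.20 and 1.87 CPM, 9.2 and 9.65 CPM, and 32.6 and 29.0 CPM (-2.72). Cytosolic ribosomal protein genes gave no stable value. Of 75 tested, 36 were called lower and 2 higher (median -0.32). The median was -0.64 without replicate 1 of the knockout control and -0.07 without replicate 2. Ribosomal protein genes also have many pseudogenes, which can share reads with them.

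In glycolysis and hypoxia genes vector and scramble also differed from each other. Of 18 glycolysis genes 11 were called higher and ALDOA, aldolase A, lower (list median 0.45), with a median of 0.15 against vector and 0.65 against scramble. Without replicate 1 of the knockout control 9 were higher and 4 lower (median 0.23), and without replicate 2 12 were higher and none was called lower, ALDOA being at -0.35 with all libraries and -0.11 there. PGK1 stood at 988 and 833 CPM in the knockout control, 603 and 596 CPM in vector and 242 and 227 CPM in scramble (1.28), and LDHA, lactate dehydrogenase A, was higher by 0.94. Of 25 hypoxia genes 10 were higher and 10 lower (median 0.03), with medians of -0.19 against vector and 0.17 against scramble, and of 0.05 without replicate 1 of the knockout control and -0.17 without replicate 2. SLC2A3, a glucose transporter, stood at 98.2 and 108 CPM against 1114 and 1114 CPM in vector and 774 and 782 CPM in scramble (-3.18), and NDRG1, a hypoxia-induced gene, was at -1.86. Of 33 ATF4 and serine synthesis genes 12 were higher and 12 lower (median 0.01; -0.24 without replicate 1 of the knockout control and 0.15 without replicate 2), PSAT1 of serine synthesis being at 2.04 and PYCR1 of proline synthesis at -1.53. Cholesterol synthesis genes were higher in 11 of 24 and lower in 4 (median 0.16; 0.29 without replicate 2 of the knockout control), among them ACAT2 (1.58) and IDI1 (0.97), enzymes of the pathway, which were higher. Fatty acid synthesis genes were higher in 6 of 17 and lower in 4 (median 0.10), GPAM among the former (1.25). Their median was 0.04 without replicate 1 of the knockout control and 0.03 without replicate 2. The counts of fatty acid and ATF4 genes were near or below the shares of all genes (34.8% higher, 33% lower).

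Of 24 targets of NRF2, the regulator of antioxidant genes, 15 were called higher and 7 lower (median 0.37). With DESeq2 11 were higher and 7 lower, and with weights per arm 11 were higher and 6 lower. GCLM of glutathione synthesis was at 1.23 and NQO1, a quinone reductase, at 1.08. The mean of NQO1 was 198 CPM in the knockout control, 133 CPM in vector and 65.9 CPM in scramble. Of 23 AP-1 and immediate early genes 6 were higher and 15 lower (median -0.52): EGR1 stood at 9.18 and 9.11 CPM in the knockout control, 65.9 and 65.5 CPM in vector and 130 and 125 CPM in scramble (-3.32), and JUN was at 1.55. Textbook targets of p53 had no common direction, with 8 of 29 higher and 10 lower. Their median was -0.11 (-0.02 without replicate 1 of the knockout control). These counts were near or below the shares of all genes (34.8% higher, 33% lower). C12orf5, an older symbol of TIGAR, a regulator of sugar phosphates, stood at 14.6 and 16.3 CPM against 1.36 to 4.87 CPM (2.58), AEN, a nuclease gene, was at 1.34 and GADD45A, a stress gene, at 1.07, while BBC3, which encodes the cell death protein PUMA, was at -1.85.

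The same difference between the arms was then measured in the 6 libraries in which p53 was targeted. It was taken as knockout minus the mean of shRNA 1 and shRNA 2, which share no library with the controls. These 6 libraries are called without p53 below after their labels alone. How far p53 was lost in them is not reported here. In this comparison 9007 genes (67.4%) were called, 4625 (34.6%) higher and 4382 (32.8%) lower in the knockout. Of the 4649 genes called higher in the knockout control 4564 (98.2%) lay in the same direction, 4037 (86.8%) were called in it and 5 (IL1B, MMP1, FRMD8, CCDC113 and ACSL1) were called in the opposite one. Without replicate 2 of the knockout control the calls of ACSL1 (0.24) and CCDC113 (0.33) among the controls were lost, that of CCDC113 also without replicate 1, and they were made under 6 and 8 of 17 alternatives. Of the 4404 called lower 4277 (97.1%) lay in the same direction, 3777 (85.8%) were called in it and 17 in the opposite one. Across 13365 genes, which are not independent replicates, Pearson's r of the 2 log2 fold changes was 0.922 and Spearman's rho 0.926; both comparisons cross the same arms, and with them doxycycline and any batch. FN1 was at -4.73 without p53 and -4.44 with it, MCM4 at 2.28 and 2.29, COL1A1 at -1.72 and -2.02, and CXCL1 at 5.15 and 5.58. The list medians without p53 were 2.69 for replication genes, -1.26 for collagens, -2.65 for fibroblast markers and 0.51 for NF-kB targets.

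The test of the difference between these arm differences called 201 of 13365 genes (1.5%), 62 (0.464%) with a more positive value when p53 was kept and 139 (1.04%) with a more negative one; 1858 genes had an unadjusted p below 0.05. With a size of at least 2-fold these were 10 (0.0748%) and 28 (0.21%). This count was unstable: it was 3175 without replicate 2 of the knockout control, 863 without replicate 1, 38 and 32 without the first or second knockout library and 52 to 64 without any other library. Mitotic genes were the list with the most calls, 13 of 32, all negative. Their median arm difference was 0.76 with p53 and 1.38 without, AURKA being at 1.24 and 2.02. With p53 the median was 0.47 against vector alone and 1.13 against scramble alone, so its gap to 1.38 depended on the control. Of the named mitotic genes, TPX2 was called under 20 of 22 alternatives, AURKA under 15 and CCNB1 under 9. IL1B was 1.11 higher in the knockout arm with p53 and at -0.29 without (difference 1.39, SE 0.14, edgeR adjusted p 0.0024). Its mean was 155 CPM in the knockout control, 27.4 CPM in vector and 190 CPM in scramble. The 1.11 thus came from vector, and against scramble alone IL1B was at -0.29 with p53 too. Without p53 its mean was 123 CPM in the knockout, 90.2 CPM in shRNA 1 and 249 CPM in shRNA 2. IGFBP3, an IGF-binding protein gene, was at -1.55 with p53 and -0.24 without (difference -1.31, SE 0.097, edgeR adjusted p 3.0e-04), and PDGFD, a growth factor gene, at 0.21 and 1.88 (difference -1.66). DCN was lower in the knockout arm in both cases, at -2.06 with p53 and -2.87 without. Its mean was 33.3 CPM in the knockout control, 64.4 CPM in vector and 300 CPM in scramble. The value with p53, and its difference from that without, thus depended on vector. Without p53 the mean of DCN was 53.8 CPM in the knockout, 283 CPM in shRNA 1 and 548 CPM in shRNA 2.

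**Figure D5:**
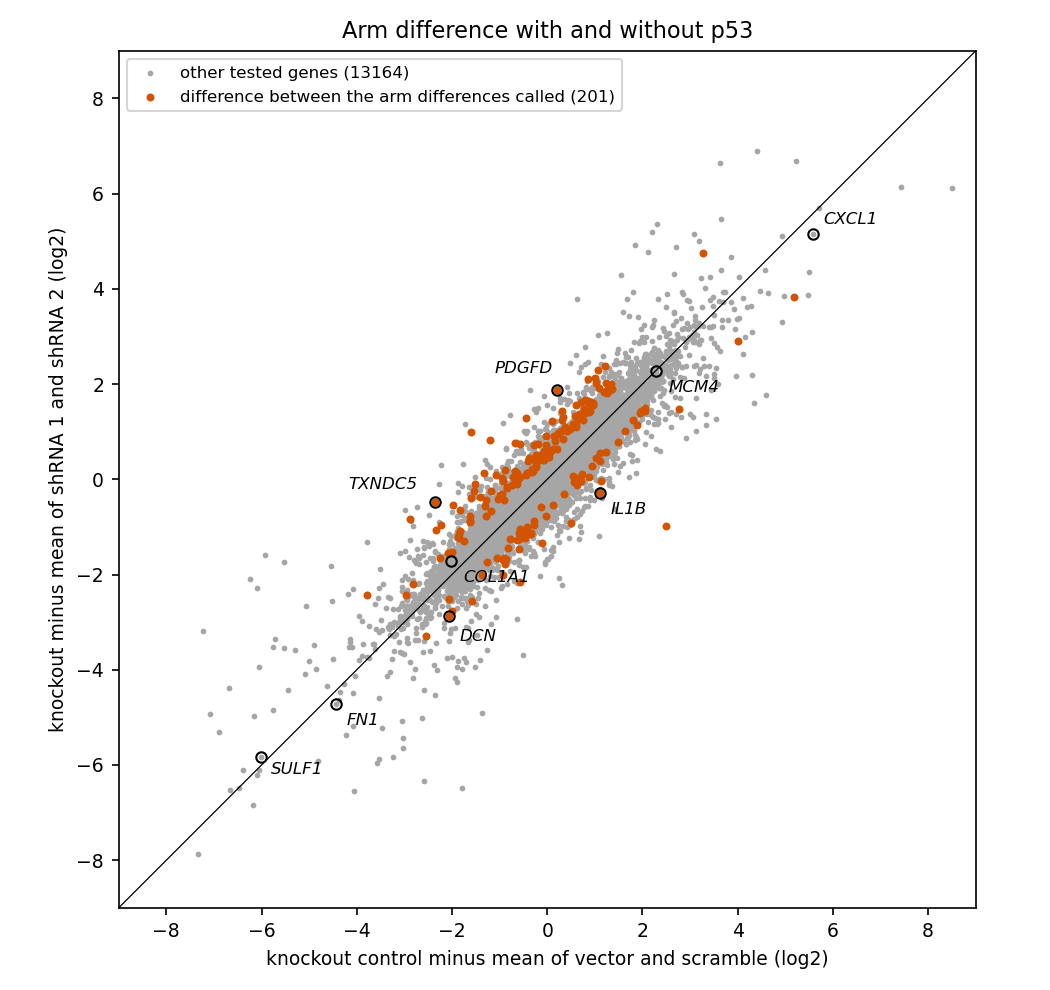
Log2 fold change of the knockout control minus the mean of vector and scramble (x axis) against that of the knockout minus the mean of shRNA 1 and shRNA 2 (y axis), 1 point per tested gene, with the line of equality. Points lie along the line, and the 201 genes whose 2 differences were called different are orange; MCM4, FN1, COL1A1, CXCL1 and SULF1 lie close to the line and IL1B, PDGFD and TXNDC5 off it.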

How the data were processed

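For 12 libraries of mRNA from LMSU cells the authors deposited unnormalised read counts, 1 column per library and 1 row per gene symbol. Per the submitters' processing notes, bcl2fastq, STAR 2.5 and the hg19 build were used; how reads were counted, with which strand setting and on which annotation, is not given in the sources used here, so overlapping and antisense genes (PCNA among them) may share reads. All 12 columns were used. Total counts ran from 9738094 to 16823246. Of 25435 symbols, 13365 passed filterByExpr of edgeR (minimum count 10). Counts were scaled by TMM, and 6 group means were fitted to all 12 libraries (6 residual degrees of freedom), with edgeR 4.0.16 in R 4.3.3 and its two-sided quasi-likelihood F test. Benjamini-Hochberg adjustment ran over all tested genes of a comparison. CPM are counts scaled by library size and TMM factor.

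The members and the 41 gene lists were chosen with earlier results of these data known. Of 1079 list entries 1078 were matched, 5 through an older symbol. Named genes were MCM4, FN1 and COL1A1, the 12 called genes in each direction with the largest change whose libraries did not overlap and whose higher side averaged at least 5 CPM (3 for the other comparisons), and up to 4 called members of each list with the smallest adjusted p, besides the most abundant markers. Clone, antisense, pseudogene, open reading frame and small RNA names were left out. The MCM subunits, collagens I, III and V, CXC chemokines, lysyl oxidases and heat shock pairs were shown as whole families, and members that went against their list or whose call rested on 1 library were named, with CDT1 and COL27A1, after their values were seen. Neither the transcript targeted in the study nor a few genes falling under these rules are reported here.

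Same-numbered libraries did not pair: the correlation of their deviations was 0.1 for knockout control and vector, 0.156 for knockout control and scramble, 0.005 for vector and scramble and -0.469 for knockout control and knockout, which is why a block with crossed numbers in the knockout was added after seeing the data. Alternatives were a stricter filter and none, other size factors, limma 3.58.1 (voom, with and without weights per arm), DESeq2 1.42.0, the compared libraries alone, vector and scramble as 1 group, a replicate block, thinned counts, stricter thresholds and each library left out. Promoters came from RefSeq (GRCh38.p14).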

Additional observations from a re-analysis of the deposited data

Results flagged for a closer look

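The difference between the arms was not the same with and without p53 for 22 of the 177 genes named by rule. This was judged by edgeR's test of the difference at an adjusted p below 0.05, which called 1.5% of all tested genes (201 of 13365). The rule itself took in the genes with the largest called values of this test in each direction. Those genes were bound to be among the 22, so the 22 cannot be compared with that share. The value given for each of the 22 is the arm difference with p53 minus that without, on the log2 scale. It equals the hairpins' difference from vector and scramble minus the knockout's difference from its control. The p53 status, the way of targeting, other hairpin effects and the gap between vector and scramble cannot be told apart in it.

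The value was positive for CARD14 (1.59), MMP1 (1.41), IL1B (1.39), MMP3 (1.36), SERPINB2 (1.12), DCN (0.81), IL11 (0.61), KLF10 (0.58) and HSPA8 (0.56). It was negative for ITM2A (-2.06), TXNDC5 (-1.88), PDGFD (-1.66), APLN (-1.48), PCDH18 (-1.35), IGFBP3 (-1.31), NQO1 (-0.84), AURKA (-0.78), TIE1 (-0.63), TPX2 (-0.59), CCNB1 (-0.57), COL5A2 (-0.47) and DKK3 (-0.46). SERPINB2, IL1B, PDGFD, DCN and IGFBP3 were called under all 22 alternatives run for this test. CARD14 was called under 5 of 21, COL5A2 under 7 of 22 and APLN and IL11 under 8 of 22 each. CCNB1 was called under 9 of 22, MMP3, TIE1 and DKK3 under 10 each, and HSPA8, TXNDC5 and PCDH18 under 11 each. The remaining genes were called under 13 (KLF10) to 21 (MMP1, ITM2A and NQO1) of 22. None of these alternatives used vector or scramble alone. Means in vector and scramble were 27.4 and 190 CPM for IL1B, 64.4 and 300 CPM for DCN and 3.37 and 15.5 CPM for SERPINB2. They were 370 and 202 CPM for IGFBP3 and 7.68 and 6.99 CPM for PDGFD. TXNDC5 encodes a protein disulfide isomerase. It stood at 6.96 and 4.34 CPM in the knockout control, 36.5 and 23.1 CPM in vector and 28.1 and 29.4 CPM in scramble. Its vector libraries thus also differed from each other.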

How the results depend on the processing

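Of 173 genes named by rule and called in the comparison of the controls, 165 could be tested under all 17 alternatives, and 163 of these were called under each; MMP1 and IL1B were not. The other 8 were too low for the stricter filter, and 6 of them were called under each of the rest, CARD14 and CSF1R not. CARD14 was at -0.56 with all libraries and -0.39 without replicate 2 of the knockout control. CSF1R was at -0.74 with all libraries and -0.67 without replicate 1 of the knockout control. None of the 173 changed sign. Among genes named outside the rule PLOD2 and CYR61 were called under 10 of 17 alternatives each and ALDOA under 12. Leaving out 1 library at a time gave 8505 to 9650 calls for the knockout control against the mean of both controls, 6839 to 9184 against vector, 7236 to 9431 against scramble, 7762 to 8520 for the arm difference without p53 and 32 to 3175 for the difference between the arm differences. A fold limit of 2 left 3513, 3293, 3794, 3557 and 38 calls. The last count was 498 with no filter, 68 with weights per arm and 42 at an adjusted p below 0.01; the cause was not tested. For the 6 controls the count was 8475 with DESeq2, 8239 with the compared libraries alone, 7214 with vector and scramble as 1 group and 7857 with weights per arm. With a library left out, its group's lone library is assumed to vary like the others. With the replicate number as a block the counts were 8833 for the controls and 74 for the difference between the arm differences, and a crossed block of the knockout libraries (their deviations ran against those of the knockout control), chosen after seeing the data, gave 214; the numbers mark no stated pairing. Thinning all libraries to the lowest total left 8710 calls for the controls and 143 for the difference between the arm differences.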

Other observations

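APLN, which encodes the vascular peptide apelin, was among the largest arm differences without p53 (4.75). Among the controls it stood at 23.4 and 20.1 CPM in the knockout control, 6.11 and 5.32 CPM in vector and 0.890 and 0.898 CPM in scramble (3.26). EPYC, a proteoglycan gene of cartilage, had 1 and 1 counts in the knockout control and 25 to 40 in each vector and scramble library, which is 31.7-fold less (exact 95% counting interval 8.62 to 265).

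With genes ordered by RefSeq (GRCh38.p14), medians of the log2 fold change over windows of 25 neighbouring genes ran from -0.88 to 0.86 over 12129 placed genes, and the chromosome medians included 0.23 on chromosome 14 (0.19 without p53).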
